A study of Mus musculus with 44 samples.

Results

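A set of 10 genes that carry the body's iron hormone, move iron across membranes, store it or sense it were followed across the mouse left ventricle: Hamp, Tfrc, Trf, Slc40a1, Slc11a2, Fth1, Aco1, Ireb2, Hmox1 and Cp. They were found by symbol in the array's annotation, and 9 of the 10 genes had a probe set of their own. These genes held 26 of the 22690 probe sets on the array, 3 of them manufacturer's controls for Tfrc, and 1 further probe set was shared by Trf and its neighbour Srprb. Hamp and Tfrc were chosen by their log2 ratios on these same arrays, Hamp for its high level in some FVB IgG hearts and Tfrc for its low level in PKCε hearts given FG-3149, so their group differences are given as a description with no test. The other 7 genes were tested with 18 probe sets.

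RNA came from the left ventricle of 44 FVB/N-strain mice, with 1 array per mouse. Mice labelled PKCε carried a transgene for a constitutively active rabbit protein kinase C epsilon (A159E), driven by the cardiomyocyte promoter of Myh6, so the kinase was added in heart muscle cells only. Their controls, called FVB here, were nontransgenic FVB/N mice. From the age of 3 months to 6 months every mouse received 30 mg/kg of antibody into the peritoneum, with 2 injections per week for 3 months. It was either nonimmune mouse IgG or FG-3149, a monoclonal antibody against connective tissue growth factor (CTGF), so no group went uninjected. There were 10 FVB IgG mice (7 female), 12 FVB FG-3149 mice (6 female), 10 PKCε IgG mice (5 female) and 12 PKCε FG-3149 mice (6 female). The labels place each mouse in its group by genotype and antibody, and no group was pooled.

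Hepcidin, the peptide encoded by Hamp, is the hormone that limits iron release into blood. It binds ferroportin, the only known cellular iron exporter and the product of Slc40a1, and causes its internalisation and breakdown. The liver is its main source, and cardiomyocytes also make it and use it to hold their own ferroportin down. Iron enters heart muscle on transferrin (Trf) through transferrin receptor 1 (Tfrc), leaves the endosome through the divalent metal transporter Slc11a2, is stored in ferritin (whose heavy chain is Fth1), is freed from heme by heme oxygenase 1 (Hmox1), and is oxidised for loading onto transferrin by ceruloplasmin (Cp). The iron regulatory proteins, encoded by Aco1 and Ireb2, bind the mRNAs of several of these genes when iron is scarce, which protects the Tfrc message and blocks translation of ferritin. Transcript levels therefore give only some of the control in this pathway.

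The deposited values are ratios: each probe set had been divided by its median over the arrays, so a log2 ratio of 0 is the middle array. A level here is such a log2 ratio, and levels of different genes or probe sets cannot be set against each other. Array medians of the ratio lay between 0.954 and 1.03, and no 2 arrays held the same values. Several libraries stood apart. On 10 arrays the log2 ratios of the atrial muscle genes Sln, Myl7 and Myl4 averaged above 4 (their average is the atrial level below). Stard10, Nppa and Bmp10, also listed as atrial genes, are not part of that average. On 4 arrays the liver gene Alb was above 5. The lung genes Sftpc and Scgb1a1 were both above 3 on 2 arrays, at 9.32 and 10.1 on PKCε IgG replicate 9 and at 3.53 and 3.71 on PKCε IgG replicate 10. Scgb1a1 without Sftpc was above 3 on FVB IgG replicates 4 (9.36), 5 (4.59) and 9 (5.08). The same held for FVB FG-3149 replicates 5 (3.10), 6 (5.17) and 7 (4.47) and PKCε FG-3149 replicate 7 (4.74). FVB FG-3149 replicate 11 is labelled female and had the Y-linked gene Uty at 3.63. In whole tissue, fewer cells of a type and less RNA per cell cannot be told apart.

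The promoters of Hamp and its neighbour Hamp2 are shown because Hamp had the widest spread of these genes and because Hamp2 is a copy of it. A probe for one may catch the other, which was not tested. The sequences are RefSeq's (GRCm38.p6), which gave a promoter for 6 of the 10 genes, and each run holds the 200 bases before the transcript start, 5′ to 3′. Capitals mark 2 motifs searched on both strands: GGCGCC, the core of the element through which BMP signals reach hepcidin, and TTCNNNGAA, the core of a STAT site.
Hamp, chr7:30944030-30944229, minus strand: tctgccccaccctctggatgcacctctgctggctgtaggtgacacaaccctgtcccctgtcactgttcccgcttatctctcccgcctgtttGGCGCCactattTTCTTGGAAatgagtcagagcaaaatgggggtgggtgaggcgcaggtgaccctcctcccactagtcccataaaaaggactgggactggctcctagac
Hamp2, chr7:30924182-30924381, minus strand: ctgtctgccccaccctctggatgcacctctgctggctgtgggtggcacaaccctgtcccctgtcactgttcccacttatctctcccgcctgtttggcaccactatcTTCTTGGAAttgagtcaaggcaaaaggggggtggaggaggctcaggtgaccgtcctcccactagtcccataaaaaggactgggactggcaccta
The runs matched at 183 of 203 aligned columns (90.1%), with 6 columns of gaps. In Hamp, GGCGCC began 109 bases and TTCNNNGAA 97 bases before the start, with no overlap between the motifs. Hamp2 held TTCNNNGAA at 94 bases and no GGCGCC in this window. Over the 250 bases before each start in 32851 RefSeq windows, GGCGCC was found in 9.59% and TTCNNNGAA in 7.02%, so either motif alone is common.

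Hamp was high on a few hearts and near its median on the rest. By probe set 1419196_at the level in FVB IgG hearts was -0.10 at the lowest, 2.21 at the median and 7.89 at the highest. In FVB FG-3149 hearts it was -0.54, 0.01 and 4.85, in PKCε IgG hearts -0.98, -0.17 and 4.19, and in PKCε FG-3149 hearts -0.74, -0.33 and 2.50. The FVB IgG group spanned almost the whole range while its lowest arrays sat among those of every other group, and all 4 groups overlapped. The linear ratio ran from 0.509 to 237 on this probe set and from 0.479 to 109 on 1419197_x_at, and the SD over arrays of the first stood at percentile 99.9 of all probe sets tested. The probe sets rose and fell on the same arrays (Pearson's r = 0.98 over 44 arrays that share their RNA, a description).

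The group means were 3.04 ± 3.22 (SD, n = 10) in FVB IgG, 0.57 ± 1.54 (n = 12) in FVB FG-3149, 0.18 ± 1.49 (n = 10) in PKCε IgG and 0.16 ± 1.14 (n = 12) in PKCε FG-3149. In the fit with a term for sex, PKCε IgG lay 2.57 below FVB IgG on the log2 scale, and leaving out single arrays in turn gave -2.98 to -2.10. FVB FG-3149 lay 2.18 below the same FVB IgG arrays, with -2.55 to -1.72 on leaving out single arrays. These differences share their control arrays, and they are the values for which Hamp was chosen. The other 3 group means lay within 1 SD of each other. On 1419197_x_at the means were 2.46 ± 2.85 in FVB IgG, 0.62 ± 1.27 in FVB FG-3149, 0.05 ± 1.24 in PKCε IgG and 0.11 ± 0.852 in PKCε FG-3149, so both probe sets placed FVB IgG first and FVB FG-3149 next, and the PKCε groups differed in order by less than their spread.

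**Figure D1:**
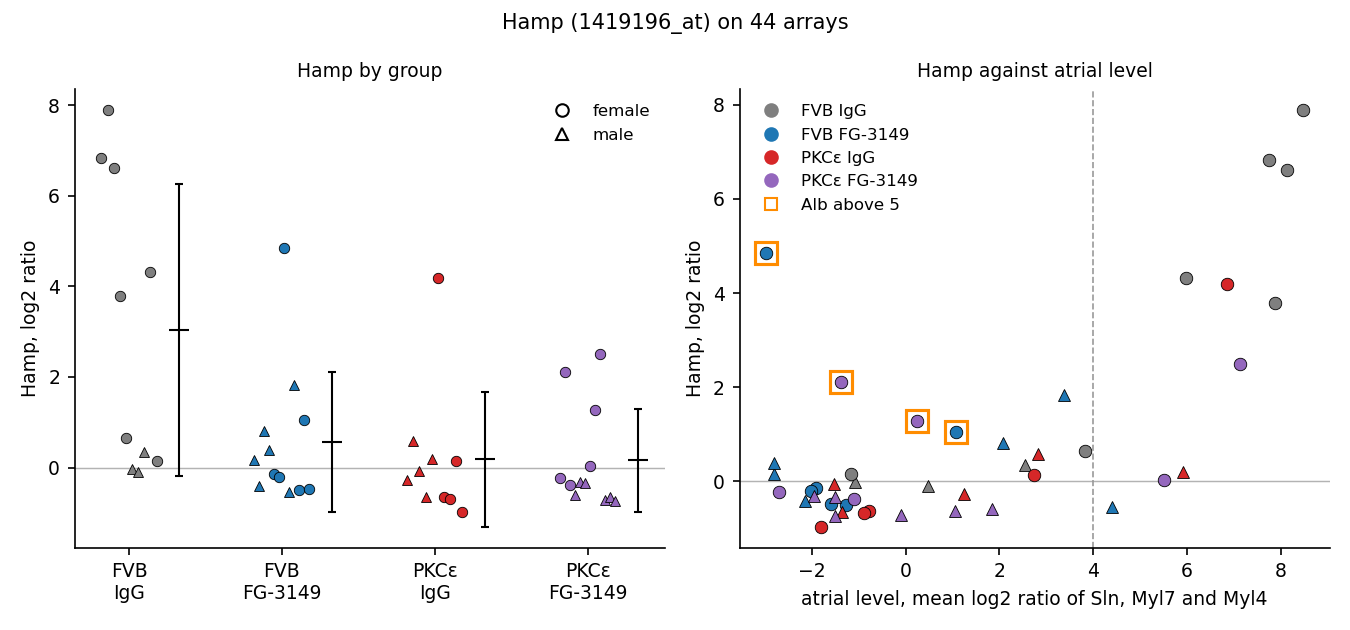
Left, the log2 ratio of Hamp probe set 1419196_at on each array in the 4 groups, with circles for females, triangles for males and the mean ± SD as a black bar beside the points. Right, the same Hamp values against each array's atrial level, with a dashed line at an atrial level of 4 and orange squares around arrays with Alb above 5. All 9 arrays with Hamp above 2 lie right of the line or carry a square.

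Each of the 9 arrays with Hamp above 2 came from a female. Of these, 5 were FVB IgG hearts, at 7.89 (replicate 2), 6.83 (replicate 1), 6.62 (replicate 3), 4.31 (replicate 9) and 3.78 (replicate 4). The others were FVB FG-3149 replicate 7 (4.85), PKCε IgG replicate 6 (4.19), and PKCε FG-3149 replicates 9 (2.50) and 2 (2.11). The next array, just outside, was the male FVB FG-3149 replicate 9 at 1.83. Among FVB IgG hearts the 7 females ran from 0.15 to 7.89 with a median of 4.31, and the 3 males from -0.10 to 0.34. Females of the other groups had medians of -0.17, -0.64 and 0.65 in FVB FG-3149, PKCε IgG and PKCε FG-3149, so most of those hearts were not high.

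Markers of other tissue stood high on the same arrays. Of the 9, 7 had an atrial level above 4, and the remaining pair were FVB FG-3149 replicate 7 and PKCε FG-3149 replicate 2, with Alb at 9.13 and 5.4. FVB FG-3149 replicate 7 also had Apoa1, the main protein of high-density lipoprotein, at 6.70 and Ttr, a thyroid hormone carrier, at 5.72. The atrial level ran from -1.16 to 8.47 in FVB IgG (median 4.90), from -2.97 to 4.40 in FVB FG-3149, from -1.80 to 6.86 in PKCε IgG and from -2.70 to 7.14 in PKCε FG-3149. The highest mean level of the liver list was 1.39, 4.92, 0.51 and 2.19 in the same order. A high atrial level did not always come with high Hamp: on 3 of the 10 such arrays, FVB FG-3149 replicate 8, PKCε IgG replicate 5 and PKCε FG-3149 replicate 7, Hamp stayed at or below 2. Nor did Alb: of the 4 arrays with Alb above 5, FVB FG-3149 replicate 11 had Hamp at 1.05 and PKCε FG-3149 replicate 8 at 1.28.

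Several adipocyte markers also stood high on some FVB IgG arrays. Of the 10 probe sets of that list 6 were lower in PKCε IgG and 5 lower in FVB FG-3149 than in FVB IgG. The shares of all probe sets called lower were 20.6% and 4.22%. Adipoq, a fat cell hormone, was at -2.25 in both. Fabp4, of the same list, ran only from -0.28 (replicate 7) to 0.71 (replicate 6) in FVB IgG. The mean level of the list ran from -0.68 to 3.91 in FVB IgG, -0.91 to 0.96 in FVB FG-3149, -0.91 to 0.58 in PKCε IgG and -0.79 to 0.91 in PKCε FG-3149. It was 3.91, 2.36, 1.09, 3.05 and 0.96 on FVB IgG replicates 1, 2, 3, 4 and 9, which had high Hamp. On the other FVB IgG arrays it ran from -0.68 (replicate 6) to 1.44 (replicate 8). Its part in the Hamp differences was not tested.

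Setting aside the arrays with a high atrial level or Alb above 5 took out all 9 arrays with Hamp above 2. Smaller group differences in Hamp therefore followed from the choice of arrays and were no test. The Alb limit was chosen after seeing the data. On the 30 arrays with neither a high atrial level nor Alb above 5, Hamp reached 1.83 at most. Its medians there were 0.15 in FVB IgG (n = 5), -0.15 in FVB FG-3149 (n = 9), -0.46 in PKCε IgG (n = 8) and -0.49 in PKCε FG-3149 (n = 8). Without the arrays of high atrial level, PKCε IgG minus FVB IgG was -0.56 and FVB FG-3149 minus FVB IgG was 0.41. Without those and the Alb arrays the same differences were -0.49 and -0.03, and with the atrial level as a covariate on all 44 arrays they were -1.63 and -0.60. In females alone they were -3.91 and -3.56, and in males alone -0.11 and 0.30.

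Hamp2 followed Hamp on some arrays. Its probe set 1436643_x_at reached 4.44 on FVB IgG replicate 2, where Hamp was highest, and 2.00 and 1.94 on replicates 1 and 3. On PKCε IgG replicate 6, where Hamp was 4.19, Hamp2 stood at -0.03. A second Hamp2 probe set, 1456289_at, stayed between -0.36 and 0.73 on all arrays. Transcripts and probes were not compared here, so the signal of one gene cannot be fully parted from that of the other. Of all genes, those whose levels ran most like Hamp's over the 44 arrays were Ahsg, a liver plasma protein (r = 0.87), Pum3 (0.87), Stard10 of the atrial list (0.86), the heart transcription factor Tbx5 (0.86) and the ion transport regulator Fxyd3 (0.86). Ahsg did not always follow Alb. On FVB IgG replicate 3 it was 2.57 with Alb at -0.57, and on FVB FG-3149 replicate 11 it was -0.09 with Alb at 5.08.

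Tfrc, the receptor that takes up transferrin-bound iron, was lowest in the PKCε hearts given FG-3149. By probe set 1452661_at the level was -0.66, -0.16 and 0.95 (lowest, median and highest) in FVB IgG and -0.26, 0.36 and 1.26 in FVB FG-3149. It was -0.22, 0.41 and 0.82 in PKCε IgG and -1.33, -0.72 and -0.10 in PKCε FG-3149. All 12 PKCε FG-3149 hearts lay below the PKCε IgG median, 10 of them below every PKCε IgG heart and 9 below every FVB FG-3149 heart. The means from the highest were 0.37 ± 0.307 (SD, n = 10) in PKCε IgG, 0.31 ± 0.408 (n = 12) in FVB FG-3149, -0.05 ± 0.51 (n = 10) in FVB IgG and -0.70 ± 0.404 (n = 12) in PKCε FG-3149. Only the step to the last group exceeded the SDs.

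PKCε FG-3149 was 1.07 below PKCε IgG on the log2 scale, a 2.10-fold lower ratio. Leaving out single arrays gave -1.14 to -1.02, females alone -0.85 and males alone -1.30. This is the pattern for which Tfrc was chosen. Within PKCε hearts given IgG, Tfrc lay 0.37 above FVB IgG, with 0.31 to 0.47 on leaving out single arrays, which is less than the spread of FVB IgG hearts.

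The other Tfrc probe sets showed less of it. On 1422967_a_at the PKCε FG-3149 hearts ran from -0.80 to 0.48 with a median of -0.43, and 8 of 12 lay below every PKCε IgG heart, with a difference of -0.60. On 1422966_a_at the difference was -0.14, with group means of -0.04, 0.14, 0.12 and -0.03 in FVB IgG, FVB FG-3149, PKCε IgG and PKCε FG-3149. The manufacturer's controls for the 3′, middle and 5′ stretches of the message had PKCε FG-3149 means of -0.02, -0.09 and -0.08 and PKCε IgG means of 0.02, 0.02 and -0.12. The drop was therefore seen on 2 of the 6 probe sets that read Tfrc. Levels of 1452661_at correlated with those of 1422967_a_at at r = 0.70, with 1422966_a_at at 0.42 and with the controls at 0.23 to 0.49 (44 arrays, shared RNA, a description).

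**Figure D2:**
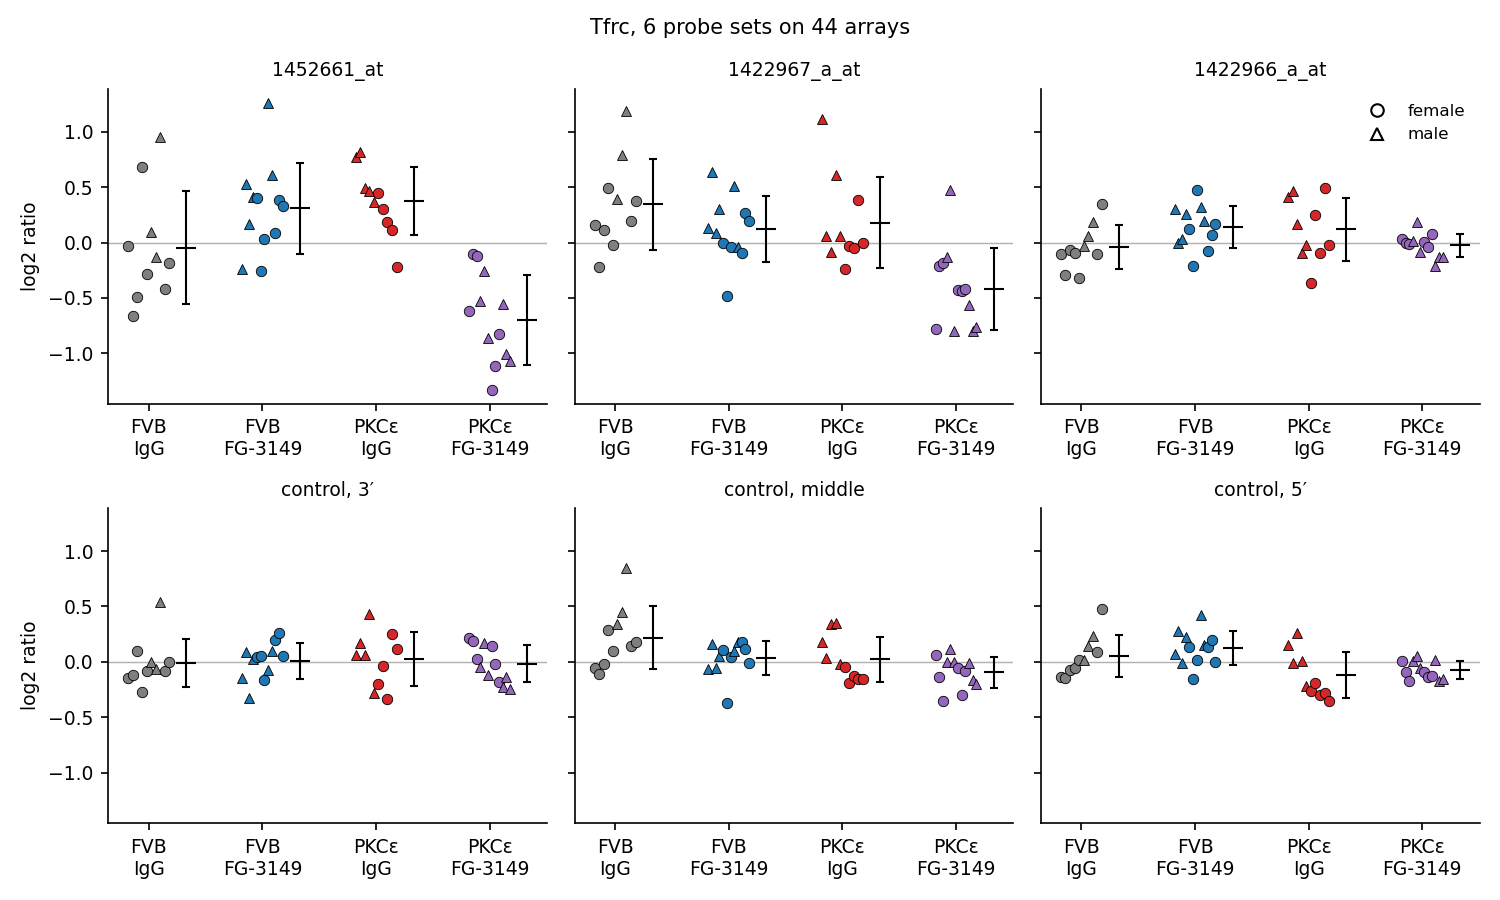
The log2 ratio of each Tfrc probe set on each array in the 4 groups, with circles for females, triangles for males and the mean ± SD as a black bar beside the points. The PKCε FG-3149 hearts sit lowest on 1452661_at and 1422967_a_at, while on 1422966_a_at and the 3 controls the groups overlap.

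The genes whose levels ran most like Tfrc's over the 44 arrays were Fez2 (r = 0.67), the clathrin adaptor subunit gene Ap1b1 (0.65), Spsb3 (0.63), Trir (0.60) and Mgat4b (0.59). With each group's mean taken out, these fell to 0.51, 0.48, 0.34, 0.30 and 0.41.

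The remaining 7 genes were tested in every comparison, and a probe set was called at a limma adjusted p under 0.05 over all 22626 probe sets tested. Probe sets of 1 gene read the same transcripts and are not independent. Between PKCε IgG and FVB IgG, 6 of the 18 probe sets were higher and 4 lower, where 20.4% of all probe sets were higher and 20.6% lower. All 6 were Cp, and the 4 were Fth1 on both probe sets, Aco1 on one and Hmox1. Between PKCε FG-3149 and PKCε IgG, 1 was higher (Slc40a1) and 3 lower (Cp), beside 4.55% and 3.83% of all. Between FVB FG-3149 and FVB IgG none was higher and 1 lower (Cp), beside 4.13% and 4.22%. Between PKCε and FVB hearts given FG-3149, 8 were higher (Cp and Slc40a1) and 3 lower (Fth1 and Aco1), beside 20.6% and 24.5%. The antibody difference itself differed between the lines on 2 (Slc40a1), with a greater rise in PKCε, and on none the other way, beside 2.03% and 1.92%. The medians of the 18 differences were 0.005, -0.03, -0.07, 0.14 and 0.01 in this order, against -0.04, 0.01, 0.02, -0.04 and -0.01 for all probe sets tested.

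Slc40a1, the iron exporter that hepcidin removes, was higher in PKCε hearts given FG-3149 than in those given IgG. By 1448566_at the levels were -0.96, -0.32 and 0.59 (lowest, median and highest) in PKCε IgG and -0.18, 0.18 and 1.04 in PKCε FG-3149. In FVB IgG they were -0.30, 0.14 and 0.45 and in FVB FG-3149 -0.58, -0.15 and 0.49. All 12 PKCε FG-3149 hearts lay above the PKCε IgG median, and 3 above every PKCε IgG heart. The difference was 0.60 ± 0.130 (SE), a 1.52-fold rise, with a limma adjusted p of 0.00243. It did not pass with the 3′ minus 5′ log2 ratio of Gapdh as a covariate (0.46, limma adjusted p = 0.0592) or without the arrays of high atrial level or Alb above 5 (0.50, limma adjusted p = 0.0897). That ratio, a sign of how complete the RNA was, averaged 0.30 in PKCε IgG and 0.04 in PKCε FG-3149.

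Its second probe set, 1417061_at, moved the same way but did not pass, at 0.35 ± 0.118 with a limma adjusted p of 0.053. Its levels were -0.62, -0.18 and 0.65 in PKCε IgG and -0.26, 0.28 and 0.64 in PKCε FG-3149, and leaving out any 1 of 8 arrays brought it under the threshold. In FVB hearts the antibody differences were -0.10 on 1448566_at (limma adjusted p = 0.701) and -0.22 on 1417061_at (limma adjusted p = 0.281), and neither passed. The antibody difference was greater in PKCε than in FVB by 0.71 ± 0.185 on 1448566_at (limma adjusted p = 0.020) and by 0.57 ± 0.168 on 1417061_at (limma adjusted p = 0.0418). The call on 1417061_at was lost on leaving out any 1 of 24 arrays. Averaged over both probe sets, the differences in PKCε and between the lines were 0.48 (limma adjusted p = 0.00471) and 0.64 (limma adjusted p = 0.0137).

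Among hearts given FG-3149, Slc40a1 was higher in PKCε than in FVB by 0.48 ± 0.113 on 1417061_at (limma adjusted p = 0.000725) and by 0.39 ± 0.124 on 1448566_at (limma adjusted p = 0.00991). Between the lines given IgG the differences were -0.10 (limma adjusted p = 0.545) and -0.31 ± 0.137 (limma adjusted p = 0.0618). The last of these fell under the threshold without any 1 of 3 arrays, among them PKCε IgG replicate 9, the array with the highest lung genes, which was the highest of its group on both probe sets. Slc40a1 was also higher in females, by 0.39 ± 0.0847 (limma adjusted p = 0.00154) and 0.40 ± 0.0934 (limma adjusted p = 0.00264).

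Macrophages are rich in ferroportin, and of the 15 probe sets of the macrophage list none was called between PKCε FG-3149 and PKCε IgG. Between FVB FG-3149 and FVB IgG, 5 were lower and none higher, beside 4.22% and 4.13% of all probe sets. In the comparison of the lines given FG-3149, 9 of the 15 were higher in PKCε and none lower, beside 20.6% and 24.5%. By sex, 6 were higher in females and none lower, beside 8.11% and 6.77%. The mean level of the list ran from -0.34 to 0.65 in FVB IgG, -0.51 to 0.06 in FVB FG-3149, -0.19 to 0.92 in PKCε IgG and -0.30 to 0.32 in PKCε FG-3149. Their part in the Slc40a1 differences was not tested. With the arrays of high atrial level left out, the differences between the lines in the antibody effect were 0.51 (limma adjusted p = 0.315) and 0.65 (limma adjusted p = 0.196), so neither passed. In females alone the PKCε antibody difference on 1448566_at was 0.53 (limma adjusted p = 0.109) and in males alone 0.68 (limma adjusted p = 0.0887).

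**Figure D3:**
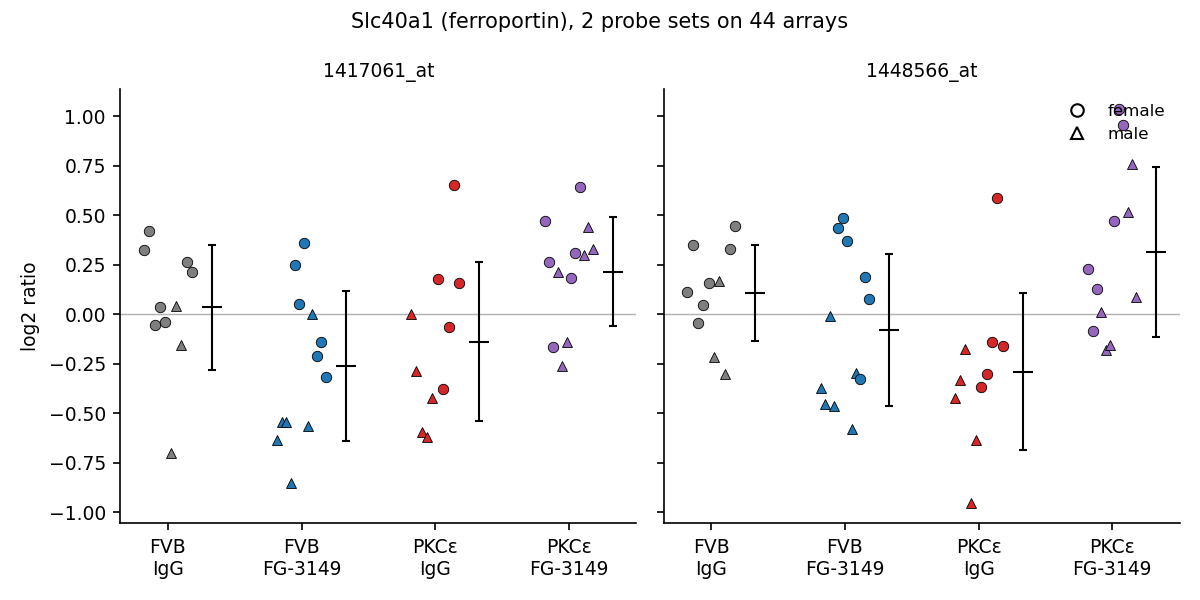
The log2 ratio of both Slc40a1 probe sets on each array in the 4 groups, with circles for females, triangles for males and the mean ± SD as a black bar beside the points. In PKCε hearts the FG-3149 arrays sit above the IgG median on 1448566_at, whereas the FVB groups overlap.

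Cp, the copper-carrying ferroxidase that acts with ferroportin in iron release, was higher in PKCε hearts on 6 of its 7 probe sets. By 1417497_at the levels were -0.56, -0.31 and -0.02 in FVB IgG and 0.07, 0.32 and 0.73 in PKCε IgG, so all 10 PKCε IgG hearts lay above every FVB IgG heart. The difference was 0.71 ± 0.073 (SE), a 1.64-fold rise, with a limma adjusted p of 1.85e-10. By 1455393_at the levels were -0.47, -0.23 and 0.32 against 0.16, 0.53 and 1.13, a difference of 0.80 ± 0.127 (limma adjusted p = 2.12e-06), with 9 of 10 hearts above every FVB IgG heart. The other differences were 0.47, 0.43, 0.29 and 0.28 on 1448735_at, 1417494_a_at, 1417495_x_at and 1417496_at, with limma adjusted p from 2.04e-06 to 0.0217. On 1448734_at the difference was 0.17 (limma adjusted p = 0.235). The call on 1417495_x_at was lost without FVB IgG replicate 6 or PKCε IgG replicate 9. That on 1417496_at was lost with the 3′ to 5′ ratio of Gapdh as a covariate (0.17, limma adjusted p = 0.251), where 1417497_at stood at 0.65 (limma adjusted p = 2.62e-07).

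Of the Cp probe sets, 3 were lower in PKCε hearts given FG-3149 than in those given IgG. By 1417496_at the levels were 0.04, 0.31 and 0.66 in PKCε IgG and -0.46, -0.06 and 0.23 in PKCε FG-3149, and 10 of 12 hearts lay below every PKCε IgG heart. The difference was -0.42 ± 0.0885 (limma adjusted p = 0.00197), and it did not pass in either sex alone. The same probe set fell in FVB hearts given the antibody, from -0.31, 0.14 and 0.50 to -0.67, -0.39 and 0.05, a difference of -0.37 ± 0.0895 (limma adjusted p = 0.00612). This fall in FVB did not pass without the arrays of high atrial level, nor in either sex alone.

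The other calls on Cp under the antibody lay near the threshold. The fall on 1417494_a_at in PKCε, -0.31 ± 0.0943 (limma adjusted p = 0.0301), was lost without PKCε IgG replicate 1, PKCε IgG replicate 9 or PKCε FG-3149 replicate 7. The fall on 1455393_at, -0.37 ± 0.120 (limma adjusted p = 0.0488), was lost without any 1 of 28 arrays. On 1417497_at, the probe set with the clearest rise in PKCε, the antibody difference was -0.16 (limma adjusted p = 0.142). Averaged over the 7 probe sets, Cp lay 0.45 above FVB IgG in PKCε IgG (limma adjusted p = 1.61e-05) and 0.23 lower under the antibody in PKCε on the log2 scale (difference -0.23, limma adjusted p = 0.0495).

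Among hearts given FG-3149, Cp stayed higher in PKCε on 6 probe sets, with differences of 0.48 on 1417497_at (limma adjusted p = 1.57e-07), 0.62 on 1455393_at (limma adjusted p = 2.86e-05) and 0.23 to 0.40 on the other 4. No Cp probe set differed between the lines in its antibody difference. In females, 1417497_at was higher by 0.19 ± 0.0496 (limma adjusted p = 0.00741) and 1455393_at by 0.27 ± 0.0863 (limma adjusted p = 0.0279). Cp is also a liver and lung gene, and some arrays with markers of other tissue were the highest of their group. PKCε IgG replicate 9, the array with the highest lung genes, was highest of its group on all 7 Cp probe sets, and FVB FG-3149 replicate 7, with Alb at 9.13, was highest on 6. FVB IgG replicate 2, with the highest atrial level and Alb at 2.94, was highest on 6 as well. Of the 13 probe sets of the fibroblast list, 12 rose and none fell from FVB IgG to PKCε IgG, beside 20.4% and 20.6% of all. Under the antibody in PKCε none was higher and 6 were lower, beside 4.55% and 3.83% of all. In FVB hearts none was higher and 3 were lower under the antibody, beside 4.13% and 4.22%. The part of fibroblasts in the Cp differences was not tested.

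Fth1, the ferritin heavy chain, was lower in PKCε hearts on both probe sets, by a small and steady amount. By 1427021_s_at the levels were 0.01, 0.13 and 0.19 in FVB IgG, -0.03, 0.16 and 0.42 in FVB FG-3149, -0.55, -0.21 and 0.01 in PKCε IgG, and -0.27, -0.07 and 0.02 in PKCε FG-3149. Of the 10 PKCε IgG hearts, 9 lay below every FVB IgG heart. The difference was -0.34 ± 0.0517 (limma adjusted p = 1.15e-06), a 1.26-fold lower ratio. On 1448771_a_at it was -0.24 ± 0.0374 (limma adjusted p = 1.65e-06), with 8 of 10 hearts below every FVB IgG heart.

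The lower Fth1 level of PKCε was also seen among hearts given FG-3149, at -0.26 (limma adjusted p = 2.19e-05) and -0.17 (limma adjusted p = 7.31e-05). The antibody differences in PKCε were 0.12 (limma adjusted p = 0.132) and 0.09 (limma adjusted p = 0.102), and neither passed. The latter reached a limma adjusted p of 0.0485 without PKCε IgG replicate 9. The 3′ minus 5′ log2 ratio of Gapdh averaged 0.30 in PKCε IgG and -0.04 in FVB IgG. With it as a covariate the lower Fth1 level in PKCε IgG was -0.19 on 1427021_s_at (limma adjusted p = 0.00312) and -0.20 on 1448771_a_at (limma adjusted p = 0.000716), so both still passed and the first was smaller. Fth1 has many near-identical processed copies in the mouse genome, and hybridisation to their transcripts cannot be parted from that of Fth1.

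Hmox1, which opens heme and frees its iron, was lower in PKCε IgG than in FVB IgG hearts. Its levels on 1448239_at were 0.02, 0.30 and 0.47 in FVB IgG, -0.47, -0.04 and 0.40 in FVB FG-3149, -0.58, -0.33 and 0.96 in PKCε IgG, and -0.36, -0.06 and 0.62 in PKCε FG-3149. Of the 10 PKCε IgG hearts, 8 lay below every FVB IgG heart, while PKCε IgG replicate 9, the array with the highest lung genes, was above them all. The difference was -0.40 ± 0.134 (limma adjusted p = 0.0158). It did not pass in females alone (-0.19, limma adjusted p = 0.434), without the arrays of high atrial level, or with the 3′ to 5′ ratio of Gapdh as a covariate.

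The antibody differences of Hmox1 were 0.23 in PKCε (limma adjusted p = 0.286) and -0.27 in FVB (limma adjusted p = 0.208). The difference between them, 0.50 ± 0.18, did not pass either (limma adjusted p = 0.116). Without PKCε IgG replicate 9 it was 0.63 (limma adjusted p = 0.0132), and the antibody rise in PKCε then had a limma adjusted p of 0.0465, so that 1 array decided whether Hmox1 was called.

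**Figure D4:**
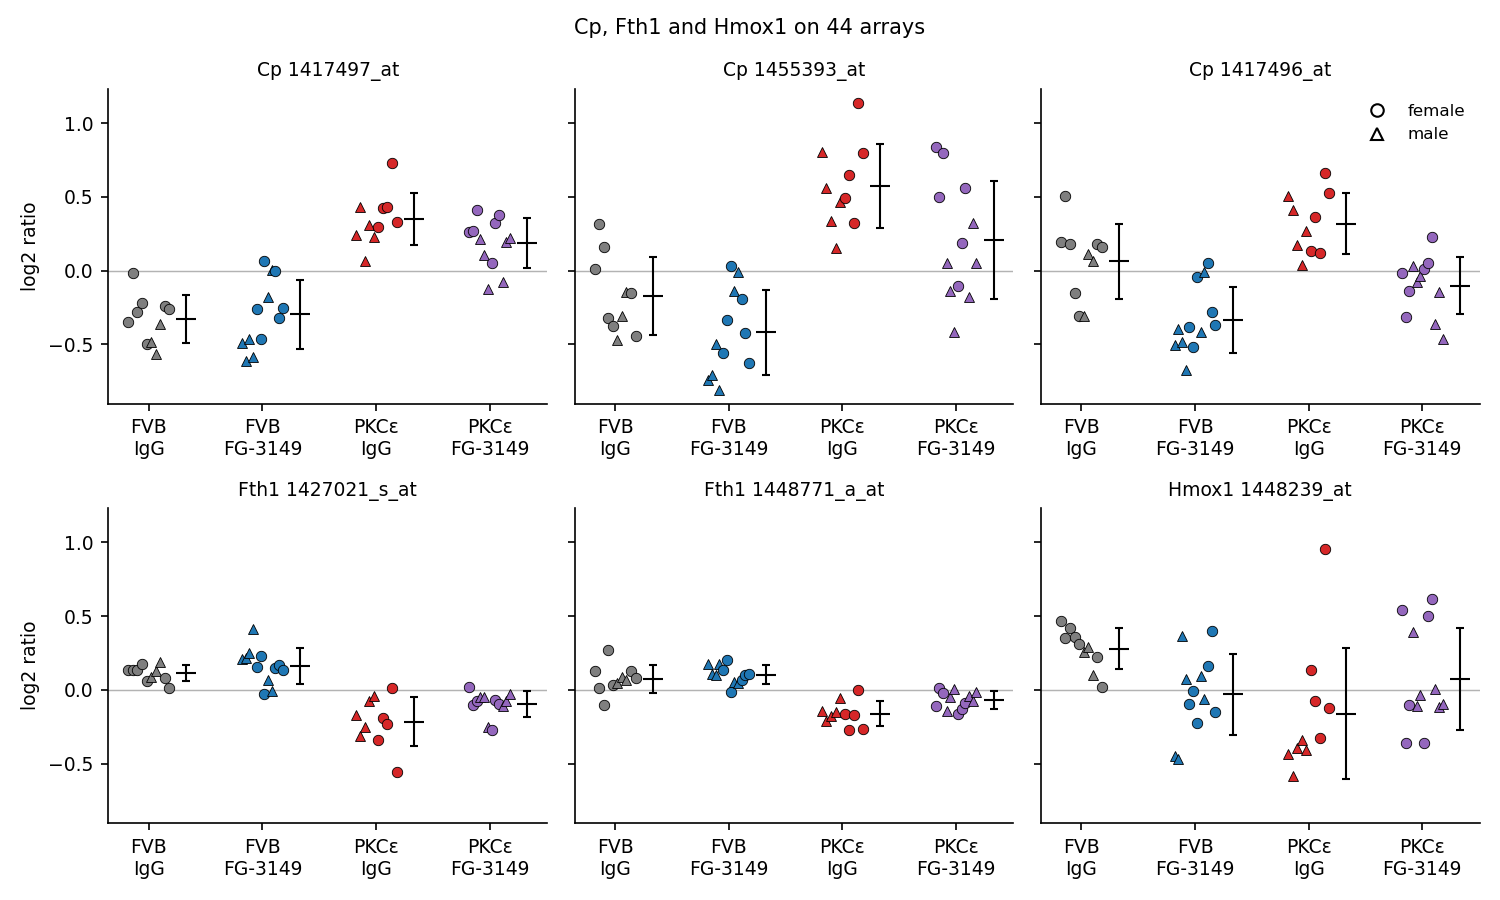
The log2 ratio on each array in the 4 groups for probe sets of Cp, Fth1 and Hmox1, with circles for females, triangles for males and the mean ± SD as a black bar beside the points. On Cp 1417497_at all 10 PKCε IgG hearts sit above every FVB IgG heart. For Fth1, 9 of 10 (1427021_s_at) and 8 of 10 (1448771_a_at) PKCε IgG hearts sit below every FVB IgG heart. For Hmox1 8 of 10 sit below, and 1 sits above them all.

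The iron sensors gave less. Aco1, which serves as the cytosolic aconitase when iron is plentiful and binds mRNA when it is not, was lower in PKCε IgG on 1456728_x_at. Group medians of its level were 0.27 in FVB IgG, 0.11 in FVB FG-3149, -0.12 in PKCε IgG and -0.04 in PKCε FG-3149, and all 10 PKCε IgG hearts lay below the FVB IgG median. The difference was -0.35 ± 0.0963 (limma adjusted p = 0.00304) and did not pass in males alone (limma adjusted p = 0.0846). Among hearts given FG-3149 it was -0.23 ± 0.0871 (limma adjusted p = 0.032). That call was lost without any 1 of 5 arrays, in males alone (-0.06) and with array medians centred. It was also lost with the Gapdh covariate, without the arrays of high atrial level and without those with Alb above 5.

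The second Aco1 probe set, 1423644_at, did not pass, with differences of -0.09 (limma adjusted p = 0.212) and -0.08 (limma adjusted p = 0.209). Ireb2, the other iron regulatory protein, passed in no comparison, and its SD over arrays stood at percentile 10.7 of all probe sets. Its antibody differences were 0.10 in PKCε (limma adjusted p = 0.201) and 0.11 in FVB (limma adjusted p = 0.147). No probe set of Slc11a2 passed, and its differences between groups on 1417584_at, 1426441_at and 1452078_a_at ran from -0.06 to 0.12.

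The probe set shared by Trf, the plasma iron carrier, and Srprb, a subunit of the signal recognition particle receptor, cannot be given to either gene. Its mean level was 0.30 ± 0.661 (SD, n = 10) in FVB IgG, -0.23 ± 0.379 (n = 12) in FVB FG-3149, 0.13 ± 0.485 (n = 10) in PKCε IgG and 0.06 ± 0.295 (n = 12) in PKCε FG-3149. The highest array was FVB IgG replicate 2, at 1.54, which also had the highest Hamp. FVB FG-3149 minus FVB IgG was -0.47 with a limma adjusted p of 0.116, and nothing passed.

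**Figure D5:**
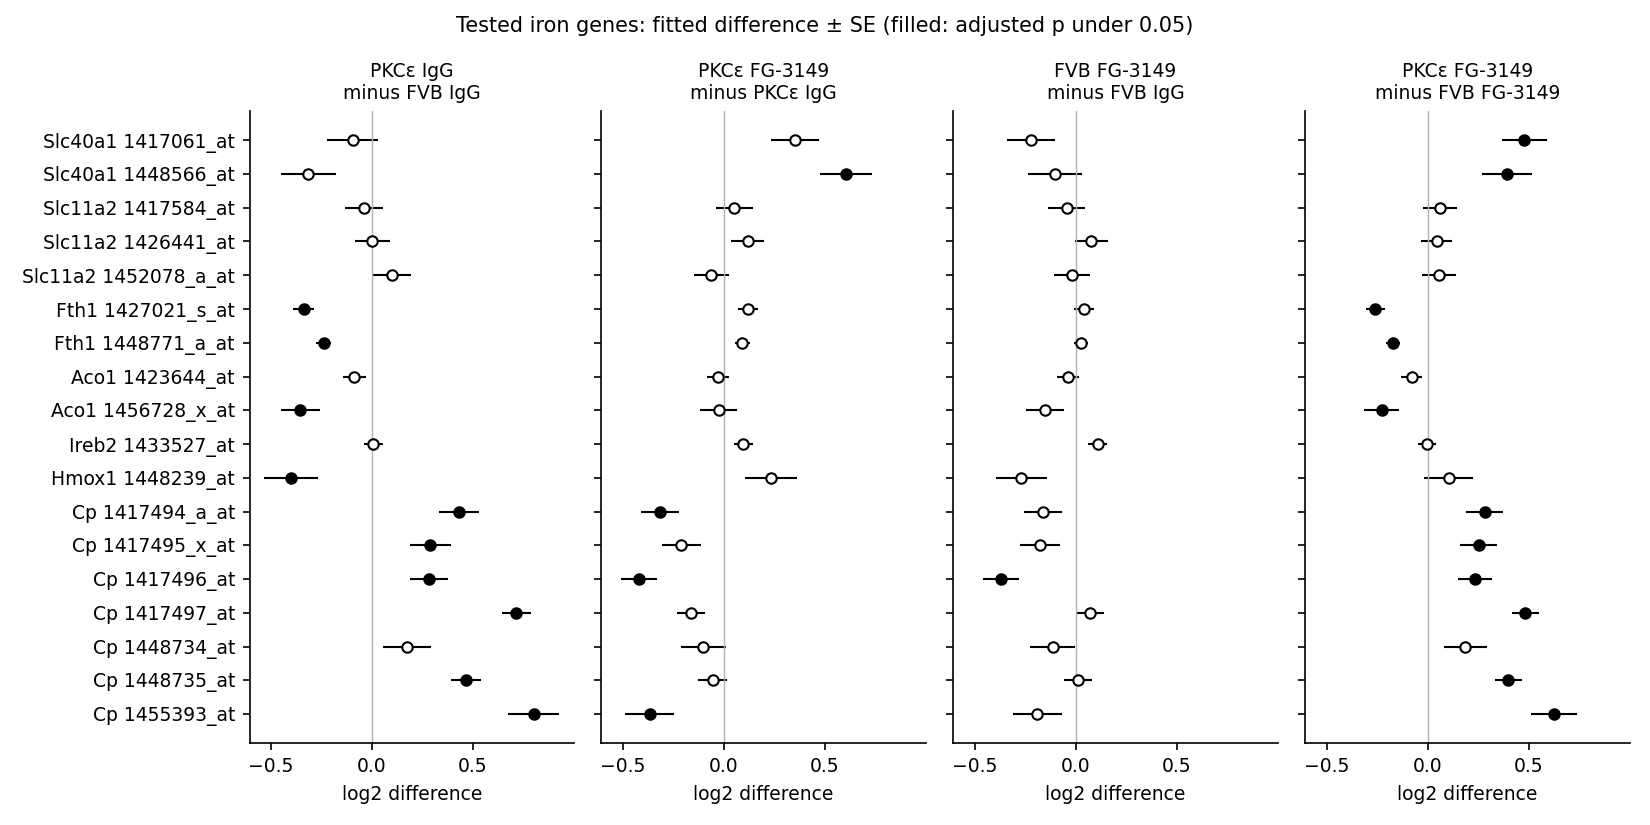
The log2 difference of each of the 18 tested probe sets in 4 group comparisons, as fitted with a term for sex, with the SE as a bar and filled points for probe sets called at a limma adjusted p under 0.05. Hamp and Tfrc are not drawn because they were chosen for these differences, and Cp lies farthest to the right in PKCε IgG minus FVB IgG.

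Differences by sex were tested for 8 genes. Hamp is left as a description here too, because the high arrays for which it was chosen were all female: its fitted difference of females over males was 1.30 on 1419197_x_at and 1.47 on 1419196_at. Of 21 probe sets of the other genes 4 were higher in females and none lower, beside 8.11% and 6.77% of all probe sets. They were Slc40a1 on both and Cp on 2, with the values given above. Of the 10 arrays of high atrial level, 8 were female, and 4 of the 12 probe sets of the liver list were higher in females, among them Alb by 1.76. Tfrc was lower in females by 0.28 on 1422967_a_at (difference -0.28, limma adjusted p = 0.0536) and did not pass on any single probe set, while the average of its probe sets passed at -0.21 (limma adjusted p = 0.0478).

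Other genes of iron handling were read from lists of known function, against the same shares of all probe sets as above. Of 34 probe sets of 19 hepcidin regulators, 11 rose and 2 fell from FVB IgG to PKCε IgG. The higher ones included Smad1, which carries BMP signals to the nucleus (0.50, limma adjusted p = 2.16e-07), the cytokine-driven factor Stat3 (0.36) and the iron-responsive ligand Bmp6 (0.54, limma adjusted p = 0.000701). The lower were the BMP co-receptor partner Neo1 (-0.59) and the interleukin 6 receptor gene Il6ra (-0.29). Under the antibody in PKCε only Bmpr1a rose (0.17) and only Il6 fell (-1.09 ± 0.282, limma adjusted p = 0.0111). In FVB hearts given the antibody 4 fell, among them the BMP ligand gene Bmp2 (-0.54), its receptor Bmpr2 (-0.39) and Smad5 (-0.25).

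Of 20 probe sets of 13 iron uptake genes, 1 rose from FVB IgG to PKCε IgG (Lrp1, 1.21) and 4 fell, among them the ferrireductase Steap4 (-0.87) and the metal importer Slc39a8 (-1.06). Under the antibody in PKCε, Steap4 rose by 0.69 ± 0.138 (limma adjusted p = 0.00124) and Scara5, a ferritin receptor, by 0.47 (limma adjusted p = 0.00452), and none fell. Steap4's antibody difference was greater in PKCε than in FVB by 0.87 (limma adjusted p = 0.00599). Of 11 probe sets of 5 storage and chaperone genes, 2 were higher in PKCε IgG (the iron chaperone Pcbp1 at 0.10 and Bola2 at 0.15) and 2 lower (Pcbp2 at -0.13 and Ncoa4, the receptor that delivers ferritin for breakdown, at -0.27). Under the antibody 1 fell in PKCε (Bola2, -0.17) and none rose, while in FVB Ncoa4 rose by 0.30 and Pcbp1 by 0.11 and none fell.

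The mitochondrial and iron-sulfur genes were mostly lower in PKCε IgG: 16 of 25 probe sets (16 genes) fell and 4 rose, with a median difference of -0.30 against -0.04 over all probe sets. Abcb10, a mitochondrial transporter needed for heme synthesis, was lower by the largest amount among those named (-0.85, limma adjusted p = 9.03e-13), with Hscb, a co-chaperone of cluster assembly, at -0.58 and the scaffold Iscu at -0.41 (limma adjusted p = 1.43e-08). Under the antibody in PKCε 7 rose and 1 fell, with a median of 0.14 against 0.01. Nfs1, the enzyme that supplies sulfur, rose by 0.49 (limma adjusted p = 0.00365) and Abcb10 by 0.28 (limma adjusted p = 0.00593). In FVB hearts none of the 25 passed, and the antibody difference of Abcb10 was greater in PKCε by 0.46 (limma adjusted p = 0.00224). No such difference between the lines passed for the other 24.

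Of 14 heme handling probe sets (12 genes), 1 was higher (Abcg2, 0.28) and 2 were lower in PKCε IgG, Flvcr2 by the larger amount (-0.65, limma adjusted p = 1.66e-06). Flvcr2 rose under the antibody in PKCε (0.30, limma adjusted p = 0.0424), and its antibody difference was greater there than in FVB by 0.48 (limma adjusted p = 0.0368). In FVB hearts the hemoglobin scavenger Cd163, a macrophage gene, fell by 0.76 on the log2 scale (difference -0.76, limma adjusted p = 0.00723).

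Hypoxia signalling and NRF2 both drive genes of iron handling, Hmox1 among them. Of 29 probe sets (16 genes) of the hypoxia list 4 were higher and 4 lower in PKCε IgG, with Hif1a the highest (1.06, limma adjusted p = 1.5e-14) and the growth factor Vegfa lower (-0.39). Under the antibody in PKCε 1 rose and 4 fell. Hif1a fell there on 1 of its 4 probe sets (-0.33, limma adjusted p = 0.00124), a different one from that of the largest rise, and on it the antibody difference was lower in PKCε than in FVB (-0.37, limma adjusted p = 0.0155). Of 22 NRF2 target probe sets (12 genes), 1 rose in PKCε IgG (its inhibitor Keap1, 0.16) and 7 fell, as Hmox1 did. The glutathione transferases Gsta4 (-0.89, limma adjusted p = 9.12e-12) and Mgst1 (-0.55) and the thioredoxin reductase Txnrd1 (-0.39) were among them. Gsta4 and Txnrd1 rose under the antibody in PKCε, by 0.33 and 0.30, and none fell. In FVB hearts 3 rose, among them Nqo1 (0.46) and Gsr (0.24), and Mgst1 fell (-0.44).

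The same lists differed between the lines under FG-3149 and between the sexes as follows. Of the hepcidin regulators 18 probe sets were higher and 3 lower in PKCε, and of the mitochondrial and iron-sulfur genes none was higher and 19 were lower. The uptake list had 3 higher and none lower, the storage list 1 and 4, the heme list 2 and 2, the hypoxia list 2 and 9, and the NRF2 list 1 and 2. In females 4 probe sets of hepcidin regulators (2 genes) were higher and 4 (3 genes) lower than in males. Among the lower were Id1, a BMP target (-0.35), and the hemochromatosis gene Hfe (-0.19). The counts of probe sets by sex were 3 and 3 for uptake and 3 (all of 1 gene, Bola2) and none for storage. They were 3 (2 genes) and 7 (6 genes) for mitochondrial and iron-sulfur genes and 2 and 1 for heme. For hypoxia they were 7 (3 genes) and 2, and for NRF2 2 and 1.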

How the data were processed

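Left ventricular RNA (250 ng per preparation) of 44 mice was hybridised to Affymetrix 430A 2.0 arrays. The deposited values are linear ratios. Per the submitters' processing notes, the authors summarised the arrays by GCRMA (version not given) and then, in GeneSpring GX 7.3.1, set the median of every probe set across samples to 1, which was checked to hold in the deposited ratios. These ratios keep neither brightness nor a detection call, so closeness to background cannot be judged, and precision is limited by how many arrays there are. Ratios ran from 0.01 to 1104, and 25 values stood at the lowest. Of the probe sets, 20393 named 1 gene, 691 several and 1606 none; 64 are controls.

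Log2 ratios were fitted with limma 3.58.1, run under R 4.3.3, by lmFit with eBayes (group means plus sex, all 44 arrays, 22626 probe sets without the controls), two-sided, with Benjamini-Hochberg adjustment over all of them per comparison. Differences carry the SE of the fit and levels the SD. The tool was tested on simulated data. The labels call the mice separate animals. The members and lists were chosen with earlier results of these data known. Of those, Hamp and Tfrc are described without a test between groups, and Hamp without one between sexes. Named list genes are called members with the lowest p, up to 3 per direction. Each is given by its called probe set of lowest p, and other probe sets of the same gene may not have been called. No protein sequences were used here.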

Additional observations from a re-analysis of the deposited data

Results flagged for a closer look

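In 54 groups of 10 arrays, 6 had a highest or lowest array far from its nearest neighbour for the group's range. Chance gives about 1 in 20 such groups where groups are independent, which does not hold here. Probe sets of 1 gene read the same RNA, and Hamp was chosen for its high arrays. The count therefore cannot be set against that rate. Hamp stood at 4.19 on PKCε IgG replicate 6 by 1419196_at, with the next array at 0.58, and at 3.40 by 1419197_x_at, with the next at 0.08; that array had an atrial level above 4. PKCε IgG replicate 9, the array with the highest lung genes, stood at 0.59 for Slc40a1 1448566_at (next -0.14) and at 0.96 for Hmox1 (next 0.13). FVB IgG replicate 6 was low for Slc40a1 1417061_at, at -0.70 (next -0.16). FVB IgG replicate 8 was high for the 3′ control of Tfrc, at 0.54 (next 0.10).

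The antibody difference of Slc40a1 differed between the lines by the limma interaction term. It was greater in PKCε than in FVB by 0.57 on 1417061_at (limma adjusted p = 0.0418) and by 0.71 on 1448566_at (limma adjusted p = 0.020).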

How the results depend on the processing

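Of 33 called differences, counting that of Hamp 1419197_x_at by sex, which is given above as a description only, 11 kept their direction and call under every alternative run: both Fth1 probe sets in both comparisons of the lines, and Cp 1417497_at, 1448735_at and 1455393_at in both and 1417494_a_at under IgG. Over all 33, 680 recalculations gave 109 losses of the call and 1 reversal: Hamp 1419197_x_at by sex turned to -0.165 without the arrays of high atrial level or Alb above 5 (chosen after seeing the data, like the alternative without the Alb arrays alone). Hamp, untested, was higher in FVB FG-3149 than in FVB IgG without the arrays of high atrial level (0.41) and in males alone (0.30). The cause of each change was not tested beyond fewer arrays or a stricter threshold.

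The 4 calls for FG-3149 in PKCε became 2 with the replicate block, at an adjusted p under 0.01, and without the arrays of high atrial level or those with Alb above 5. They became 1 with the Gapdh covariate or without both kinds of array, and 0 in either sex alone. The 1 call for FG-3149 in FVB became 0 in either sex alone, without the arrays of high atrial level, without both kinds, and with the atrial level as a covariate. The 11 calls between the lines given FG-3149 became 6 in females, 7 in males and 7 at 0.01. The 2 calls on the difference between the lines became 1 with no sex term, with array medians centred, with the atrial level as a covariate or without FVB FG-3149 replicate 11. They became 0 in either sex alone, at 0.01, and without the arrays of high atrial level or both kinds. The 5 calls by sex, Hamp included, became 2 after quantile normalization and 3 at 0.01. They became 3 without the arrays with both Sftpc and Scgb1a1 above 3, and 0 without the arrays of high atrial level or Alb above 5.

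Leaving out single arrays gave 9 to 11 calls between the lines given IgG, 2 to 5 for FG-3149 in PKCε (2 without PKCε FG-3149 replicate 7), 1 for FG-3149 in FVB, 10 to 11 between the lines given FG-3149, 1 to 3 for the difference between them and 4 to 7 by sex. Replicate numbers did not pair arrays: same-numbered arrays of different groups had mean correlations of their deviations of -0.20 to 0.11, and at most 2 of 10 correlated best with their own number. The replicate block changed 3 of the 33 calls. Scaling moved the median of all probe sets by at most 0.030. Averaging a gene's probe sets gives no count of probe sets, and fits of 2 groups alone give no difference between the lines or sexes. Signal over background is not in these ratios.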
